A study of Mus musculus with 12 samples.

Results

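The LGI proteins and their ADAM receptors were followed at the level of RNA in the ventral hippocampus of mice. The 4 ligand genes Lgi1, Lgi2, Lgi3 and Lgi4 and the 3 receptor genes Adam11, Adam22 and Adam23 were taken by gene symbol from the count table, 7 of the 54532 genes it lists. All 7 passed the filter on low counts, which left 16915 genes for testing. The family was chosen by results of these data, levels or differences between the groups, and which of them led to the choice is not recorded. Levels and differences of the 7 genes are therefore a description, and their p-values, adjusted over all tested genes, are given as context and support no statement on the family as a whole.

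The study compared 4 groups of 3 libraries, all from ventral hippocampus of mice with the genotype WT. Control mice had no treatment. One group had CSDS, another AAV8-eGFP and SSDS (SSDS-GFP), and the last SSDS on top of a hepatic ACOT12 knockdown (SSDS-shACOT12). The abbreviations are not spelled out in the labels; in this field SDS is usually social defeat stress, chronic (C) or subthreshold (S). ACOT12 is an acetyl-CoA thioesterase. No virus is named for the Control and CSDS groups, so vector and SSDS cannot be told apart in a comparison with Control. Both SSDS groups carry TBG in their library names, usually the name of a promoter active in hepatocytes; the vector of the knockdown is not described further in the labels. No label says that replicates are separate animals, so the errors measure the spread between these libraries. Strain, sex and age are not given in the sources used here.

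LGI proteins are secreted glycoproteins built from leucine-rich repeats and a propeller-shaped EPTP domain. They bind ADAM11, ADAM22 and ADAM23, members of the ADAM family of membrane proteins that have lost protease activity. LGI1 links ADAM22 and ADAM23 across the synaptic cleft, where ADAM22 is anchored by PSD-95 and other scaffold proteins, and the complex supports AMPA receptors and axonal Kv1 potassium channels. In the hippocampus it is known chiefly from disease: mutations of LGI1 cause a familial temporal lobe epilepsy, and autoantibodies against it cause limbic encephalitis.

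Library totals ran from 14656714 to 17694570 counts. The share of mitochondrially encoded genes was lowest in SSDS-shACOT12 1 (3.23%) and SSDS-shACOT12 3 (4.31%), and 6.31% to 9.24% elsewhere. Those 2 libraries and SSDS-GFP 3 stood apart from the rest on the first principal component, so values without these 3 libraries are given where they moved a result. Leaving them out keeps 1 SSDS-shACOT12 library, SSDS-shACOT12 2, whose spread is then taken from the other groups. Acot12 itself had 3 to 14 counts per library, and says nothing on a knockdown made in the liver or on the labels. All 4 Schwann cell markers together reached 0.939 to 2.76 CPM (counts over the TMM-scaled size of the library), whereas the 6 markers of excitatory neurons summed to 5178 to 8074 CPM.

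The promoters of Lgi1, Lgi2 and Adam22 are shown because these are the 3 members with an unadjusted p under 0.05 in the comparison of SSDS-shACOT12 with Control that follows. The sequences, from RefSeq on GRCm38.p6, end at the base before the first annotated base of each gene and run 5′ to 3′ on the gene's strand. Capitals mark matches to the GC box GGGCGG or its reverse complement CCGCCC.
Lgi1, chr19:38264437-38264535, plus strand: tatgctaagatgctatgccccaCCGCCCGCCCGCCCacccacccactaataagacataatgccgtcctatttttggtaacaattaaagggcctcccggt
Lgi2, chr5:52566463-52566556, minus strand: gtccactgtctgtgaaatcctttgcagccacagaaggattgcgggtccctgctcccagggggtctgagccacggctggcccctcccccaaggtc
Adam22, chr5:8368161-8368410, minus strand: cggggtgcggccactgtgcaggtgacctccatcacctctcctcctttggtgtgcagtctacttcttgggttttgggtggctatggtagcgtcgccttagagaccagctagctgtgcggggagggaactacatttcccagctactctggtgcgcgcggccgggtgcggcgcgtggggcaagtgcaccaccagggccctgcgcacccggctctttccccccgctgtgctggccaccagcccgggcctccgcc

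The printed stretch of Lgi1 held 3 overlapping matches to the GC box, and those of Lgi2 and Adam22 held 0. RefSeq promoter windows of 300 bases were matched for 4 of the 7 members, these and Adam23, and not for Lgi3, Lgi4 and Adam11. Over the whole window, both Lgi1 and Lgi2 held a GC box, as did 35.7% of 32851 promoters of the same length. The 3 printed promoters and that of Adam23 held no match on either strand to the cAMP response element TGACGTCA (1.79% of promoters), the TATA box TATAAA (13.6%) or the E-box CACGTG (7.15%). In base composition they differed, with 54.0% G and C in the window of Lgi1, 73.3% in Lgi2, 66.3% in Adam22 and 70.0% in Adam23, against a median of 52.7%. A match of letters is not a binding site.

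All 7 genes are protein-coding, and their coordinates on mm10 were identical to those of GENCODE release M21. Lgi1 (ENSMUSG00000067242) lies on chromosome 19 from 38264536 to 38312214, plus strand, and Lgi2 (ENSMUSG00000039252) on chromosome 5 from 52533517 to 52566462, minus strand. Lgi3 (ENSMUSG00000033595) spans 70530685 to 70538324 on chromosome 14 and Lgi4 (ENSMUSG00000036560) 31059342 to 31070935 on chromosome 7, both on the plus strand. Of the receptors, Adam11 (ENSMUSG00000020926) lies on chromosome 11 from 102761439 to 102780262, plus strand. Adam22 (ENSMUSG00000040537) covers 295809 bases of chromosome 5, from 8072352 to 8368160 on the minus strand, and has 24 annotated transcripts. Adam23 (ENSMUSG00000025964) runs from 63445891 to 63596276 on chromosome 1, plus strand.

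Lgi4 and Lgi1 share exon bases with a gene on the opposite strand. The overlap of Lgi4 with Fxyd3, a regulator of the sodium pump, covers 2059 of the 4584 exon bases of Lgi4. Fxyd3 itself was counted 4 to 16 times per library, against 64 to 199 times for Lgi4. Lgi1 shares 532 of 11354 exon bases with the antisense RNA Gm42723, counted 4 to 33 times per library. The name of the library kit does not mark strand, so reads from these stretches cannot be assigned to a strand. For Lgi1, 12.9% of all 50-base windows of its transcripts also occur in transcripts of 639 other genes. No window was shared between members, and none of Lgi2, Lgi3, Adam11, Adam22 or Adam23 was shared with any other gene.

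On the deposited FPKM scale, which divides by gene length and so allows genes to be compared, Adam11 was the most abundant member. Its mean over the 12 libraries was 43.3 FPKM, followed by Lgi3 at 31.3, Lgi1 at 14.7, Adam22 at 12.7, Lgi2 at 7.21, Adam23 at 6.27 and Lgi4 at 1.54. Adam11 lay above 93% of tested genes and Lgi4 above 30.4%. The neighbours Adam11 and Lgi3, Lgi1 and Adam22, and Lgi2 and Adam23 overlapped in their ranges over libraries. The other steps of the order did not overlap: the lowest FPKM of Lgi3 was 24.4 against a highest of 17.9 for Lgi1, the lowest of Adam22 was 11.2 against a highest of 9.65 for Lgi2, and the lowest of Adam23 was 4.86 against a highest of 2.57 for Lgi4. Per length, Lgi3 and Adam11 thus stood above Lgi1, Adam22 and Adam23, the members of the best known complex. The place of Lgi3 above Lgi1 and Adam22 rests on the division by exon length, 3899 bases for Lgi3, 11354 for Lgi1 and 14348 for Adam22. These lengths take in the exons of all annotated transcripts. In CPM, Lgi3 averaged 124, below Lgi1 at 169 and Adam22 at 184, and Adam11 was highest at 248.

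**Figure D1:**
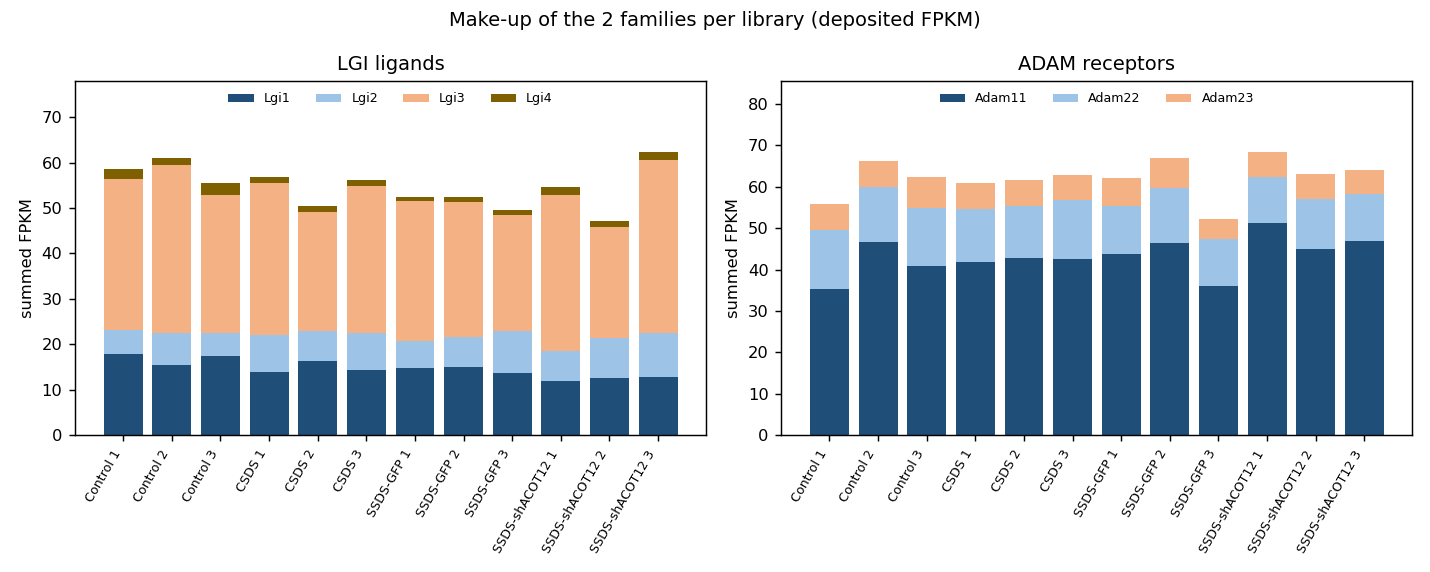
Deposited FPKM of the 4 ligand genes (left) and the 3 receptor genes (right), stacked in one bar for each of the 12 libraries. Lgi3 and Adam11 make up the largest block of every bar, and the Lgi2 block is thinnest in the Control libraries 1 and 3.

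The makeup of the ligand RNA was dominated by Lgi3, with 55.7% to 58.6% of the summed ligand FPKM as group means. Lgi1 gave 29.1% ± 3.29 (SD, n = 3) of the summed ligand FPKM in Control and 23.1% ± 3.3 in SSDS-shACOT12, with CSDS (27.5% ± 4.33) and SSDS-GFP (28.1% ± 0.626) between them. Lgi2 gave 9.81% ± 1.4 in Control, against 13.9% ± 0.914 with CSDS, 14.1% ± 4.01 with SSDS-GFP and 15.3% ± 3.43 with SSDS-shACOT12. The Lgi1 shares overlapped Control in every group. Those of Lgi2 were 8.95% to 11.4% in the Control libraries, and higher without overlap in CSDS (12.9% to 14.7%) and SSDS-shACOT12 (11.8% to 18.7%). In SSDS-GFP the Lgi2 shares overlapped Control. The share of Lgi4 was 2.73% to 4.64% in the Control libraries, and lower without overlap in CSDS (2.25% to 2.48%) and SSDS-GFP (1.89% to 2.32%). In the SSDS-shACOT12 libraries it was 2.74% to 3.39%. The FPKM ratio of Lgi2 to Lgi1 was 0.288 to 0.451 in the Control libraries and 0.537 to 0.753 in the SSDS-shACOT12 libraries, which did not overlap. In CSDS it was 0.397 to 0.578 and in SSDS-GFP 0.398 to 0.679, both overlapping Control. The ratio of Lgi1 to Adam22 was 1.165 to 1.269 in Control and 1.041 to 1.143 in SSDS-shACOT12, also without overlap. Those of Lgi4 to Lgi3, Lgi3 to Adam23 and Adam23 to Adam22 overlapped between these groups. How often ratios of other gene pairs, or shares within other families, do not overlap was not examined. Among the receptors, Adam11 made up 66.4% ± 3.65 of the summed FPKM in Control and 73.1% ± 1.74 in SSDS-shACOT12, with 22.7% ± 2.62 and 17.7% ± 1.42 for Adam22. Neither share overlapped between the libraries of these groups.

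Of the ligands, Lgi1 differed most evenly between libraries. The Control libraries 1 to 3 held it at 207, 178 and 199 CPM, and the CSDS libraries at 159.7, 186 and 164. SSDS-GFP gave 170.2, 171 and 158, and SSDS-shACOT12 139, 144 and 149.6. Every SSDS-shACOT12 library lay below every library of the other 3 groups, SSDS-GFP lay below Control throughout, and CSDS overlapped Control through CSDS 2. The SSDS-shACOT12 mean of 144 ± 5.31 CPM stood against 195 ± 15.1 in Control (SD, n = 3). That was a log2 fold change of -0.43 ± 0.11 (SE, edgeR adjusted p = 0.0625). CSDS differed from Control by -0.20 ± 0.11 (adjusted p = 0.874), SSDS-GFP by -0.23 ± 0.11 (adjusted p = 0.355). Between SSDS-shACOT12 and SSDS-GFP it was -0.21 ± 0.11 (adjusted p = 0.803). Lgi1 in SSDS-shACOT12 against Control did not pass the threshold of 0.05. Of 17 alternative settings it did so in 4, and the highest adjusted p was 0.29 (edgeR, with the gene length trend removed). It passed with the DESeq2 Wald test (adjusted p = 0.00369), which called 1493 genes in all. With a filter of 50 counts in 3 libraries it passed (edgeR adjusted p = 0.0498) among 350 genes. With quality weights in limma-voom (adjusted p = 0.0112) and without SSDS-shACOT12 2 (edgeR adjusted p = 0.0196) it passed as well. All 4 settings called more genes than the main fit, which called 14. SSDS-shACOT12 2 had the lowest quality weight of all libraries (0.189), so the weighting and the leave-out both discount that library and are not separate checks.

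Lgi2, a close relative of Lgi1 that is mutated in a juvenile epilepsy of dogs, went the other way. Control libraries gave 34.9, 46.1 and 32.9 CPM and CSDS libraries 52.5, 42.4 and 54.5. SSDS-GFP gave 39.0, 42.1 and 61.5, and SSDS-shACOT12 42.9, 57.5 and 64.7. The Control 2 library was high for its group and overlapped all 3 others, while SSDS-GFP 3 and SSDS-shACOT12 3, 2 of the libraries that stand apart, were the highest of their groups. Against Control, CSDS had a log2 fold change of 0.39 ± 0.21 (edgeR adjusted p = 0.867), SSDS-GFP one of 0.33 ± 0.21 (0.471) and SSDS-shACOT12 one of 0.54 ± 0.21 (0.141). Without SSDS-GFP 3 the value for SSDS-GFP was 0.10. SSDS-shACOT12 exceeded SSDS-GFP by 0.21 ± 0.21 (adjusted p = 0.808), a difference of the size of its error. With a library left out it ranged from 0.09 (without SSDS-GFP 1 or SSDS-shACOT12 3) to 0.44 (without SSDS-GFP 3), and without the 3 libraries that stand apart it was 0.51. Each SSDS-shACOT12 library was above the SSDS-GFP library of the same number, but what libraries of the same number share is not stated. How many other genes show such an order was not examined. With the replicate number as a block shared by all groups in the edgeR fit, the value was 0.21 (adjusted p = 0.79).

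Lgi3, the ligand with the highest FPKM and a partner of Kv1 channels at axons, varied within groups about as much as between them. Control libraries gave 132, 146 and 119 CPM and CSDS libraries 132, 103 and 127. SSDS-GFP gave 122, 116 and 101, and SSDS-shACOT12 136, 95.2 and 153. The lowest and the highest of all 12 libraries were both in SSDS-shACOT12, whose SD of 29.7 CPM was the largest of the 4 groups. CSDS differed from Control by -0.14 ± 0.17 on the log2 scale, SSDS-GFP by -0.23 ± 0.17 and SSDS-shACOT12 by -0.05 (adjusted p = 0.955, 0.549 and 0.886). For SSDS-shACOT12 it turned to 0.12 without SSDS-shACOT12 2, the library with the lowest level, and to 0.02 without Control 2. Against SSDS-GFP it was 0.18 ± 0.17 (adjusted p = 0.807), and -0.31 without the 3 libraries that stand apart.

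Lgi4, which Schwann cells need to myelinate peripheral nerve, had the lowest level and the widest range of the 7 genes, 2.56 times from the lowest to the highest library. Control libraries gave 9.81, 7.72 and 11.8 CPM, against 5.89, 5.57 and 6.46 in CSDS and 4.62, 5.38 and 5.38 in SSDS-GFP. SSDS-shACOT12 gave 8.66, 5.92 and 8.18. All CSDS and SSDS-GFP libraries lay below all Control libraries, and SSDS-shACOT12 lay between SSDS-GFP and Control, above the former throughout and overlapping the latter. Against Control, the log2 fold change was -0.71 ± 0.21 with CSDS (edgeR adjusted p = 0.849), -0.93 ± 0.21 with SSDS-GFP (0.116) and -0.37 ± 0.21 with SSDS-shACOT12 (0.28). SSDS-shACOT12 was 0.56 ± 0.21 above SSDS-GFP on the log2 scale (adjusted p = 0.803). In SSDS-GFP against Control, Lgi4 passed the threshold with the DESeq2 Wald test (adjusted p = 0.00652), without a filter (0.0221) and with quality weights in limma-voom (0.00624). In SSDS-shACOT12 against Control the value was -0.21 without Control 3, -0.23 without SSDS-shACOT12 2 and -0.71 without the 3 libraries that stand apart. Against SSDS-GFP it was 0.25 without those 3.

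**Figure D2:**
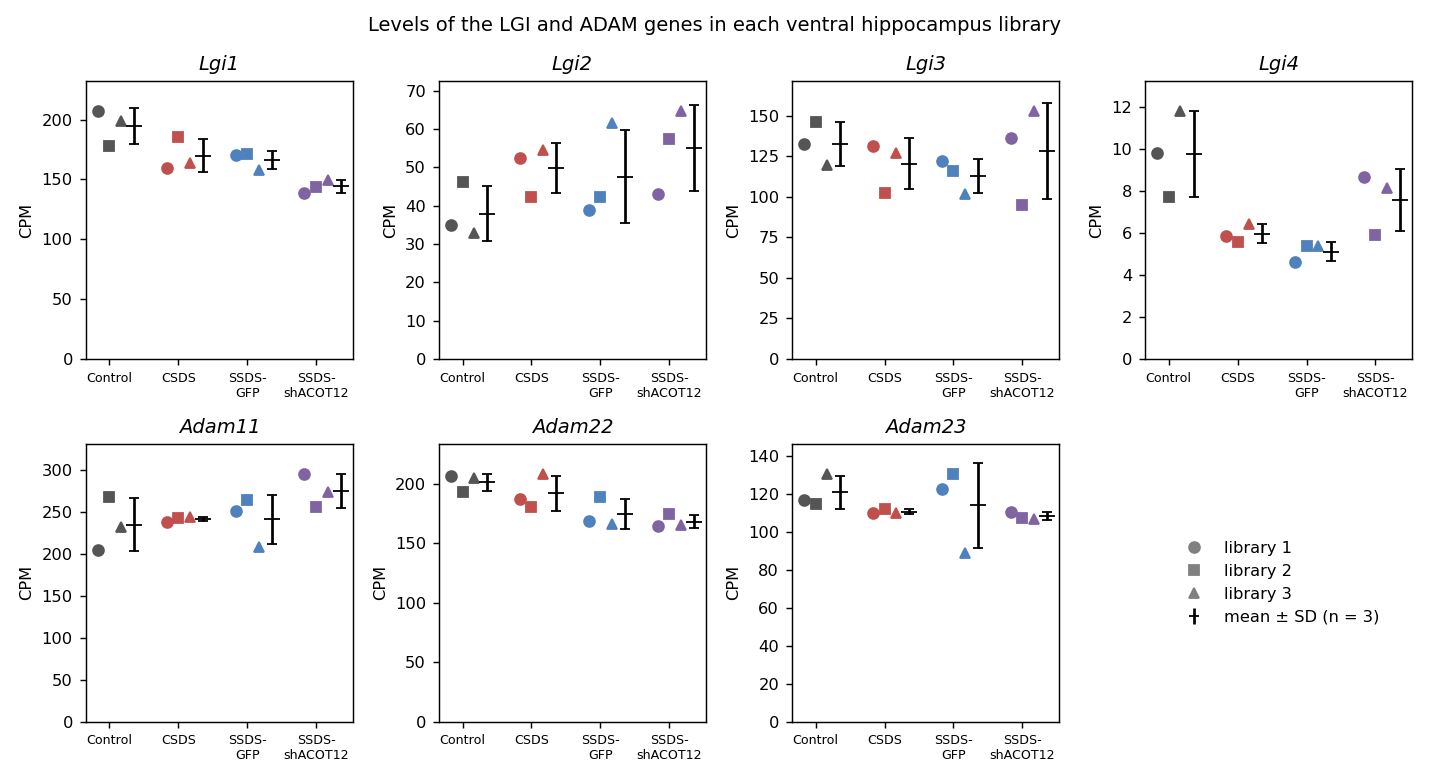
CPM of the 7 genes in each of the 12 libraries, grouped as Control, CSDS, SSDS-GFP and SSDS-shACOT12, with a coloured symbol for each library and a black dash with whiskers for the group mean ± SD (n = 3). The SSDS-shACOT12 points of Lgi1 lie between 139 and 149.6 CPM, under all others, and the Control points of Lgi4 lie between 7.72 and 11.8 CPM.

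The receptor genes differed less than Lgi1, Lgi2 and Lgi4 in log2 fold change. In SSDS-shACOT12 against Control, however, each of them differed more than Lgi3, which was at -0.05. Adam11, a receptor found at inhibitory nerve terminals of the cerebellum, was at 204, 268 and 232 CPM in Control and 238, 243 and 243 with CSDS. SSDS-GFP libraries gave 251, 263 and 208, and SSDS-shACOT12 libraries 295, 255 and 274. The Control libraries spanned most of the range of the other groups, and only SSDS-shACOT12 1 and SSDS-shACOT12 3 exceeded all of them. CSDS and SSDS-GFP each differed from Control by 0.04 on the log2 scale, SSDS-shACOT12 by 0.23 ± 0.13 (adjusted p = 0.99, 0.919 and 0.293). Without Control 1 the values for CSDS and SSDS-GFP turned to -0.05 and -0.05. SSDS-shACOT12 was 0.19 ± 0.13 above SSDS-GFP (adjusted p = 0.803), which was -0.004 without the 3 libraries that stand apart.

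Adam22, the postsynaptic receptor of LGI1, was the least variable member, with 1.27 times between its highest and its lowest library. It was at 206, 193 and 205 CPM in Control and at 188, 181 and 209 in CSDS, which overlapped. SSDS-GFP gave 169, 189 and 166, and SSDS-shACOT12 164, 174 and 165, all below the lowest Control library. The log2 fold change of CSDS against Control was -0.07 (adjusted p = 0.974), that of SSDS-GFP -0.20 ± 0.11 (0.386) and that of SSDS-shACOT12 -0.26 ± 0.11 (0.165). Between the 2 SSDS groups it was -0.06 (adjusted p = 0.897).

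Adam23, the presynaptic receptor of LGI1, stood at 117, 115 and 131 CPM in Control and at 110.0, 112 and 110.2 in CSDS. It was at 123, 131 and 88.8 in SSDS-GFP, and at 111, 107 and 107 in SSDS-shACOT12. The CSDS and SSDS-shACOT12 libraries lay below Control within a narrow band, while SSDS-GFP held a library nearly as high as the highest Control library and, in SSDS-GFP 3, the lowest of all 12. Against Control, CSDS had -0.13 ± 0.14, SSDS-GFP -0.08 and SSDS-shACOT12 -0.16 ± 0.14 on the log2 scale (adjusted p = 0.945, 0.811 and 0.49). Without SSDS-GFP 3 the value for SSDS-GFP turned to 0.07. Between the SSDS groups it was -0.07 (adjusted p = 0.895), and 0.03 without SSDS-GFP 2.

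In CSDS against Control, 0 of the 7 members passed the edgeR test, as did 0 of all tested genes (0%). At an unadjusted p under 0.05 there was 1 member, Lgi4, among 993 genes (5.87%). DESeq2 called 0 members and 6 genes, and limma-voom with quality weights 0 members and 34 genes. The libraries of the groups did not overlap for 2 members, Lgi4 and Adam23, both lower in CSDS, against 10.1% of all genes lower and 20.3% in either direction. Smaller groups overlap less often: without Control 2 the count was 5 members, against 34.8% of all genes, and without CSDS 2 it was 4, against 31.7%. The median log2 fold change of the members was -0.13 (0.001 over all tested genes).

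In SSDS-GFP against Control, 0 of the 7 members were among the 16 genes that edgeR called (0.0946% of those tested). Lgi4 alone had an unadjusted p under 0.05, which 15.2% of all genes reached. Lgi1, Lgi4 and Adam22 were lower in SSDS-GFP without overlap, 3 of 7 members, against 11.4% of all genes lower and 23.9% in either direction. DESeq2 and limma-voom with quality weights called 1 member each, Lgi4, among 531 and 2239 genes. The median of the members was -0.20 (0.006 over all genes).

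In SSDS-shACOT12 against Control, edgeR called 0 of the 7 members and 14 genes in all (0.0828%). Lgi1, Lgi2 and Adam22 had an unadjusted p under 0.05, 3 of 7 members against 24.2% of all genes. Lgi1, Adam22 and Adam23 were lower without overlap, against 11.6% of genes lower and 25.5% in either direction. Without Control 2, 6 members did not overlap, against 37% of all genes. Without the 3 libraries that stand apart, which leaves 1 SSDS-shACOT12 library, it was 6 members against 68.1% of all genes. DESeq2 called 1 member, Lgi1, among 1493 genes, and limma-voom with quality weights called the same member among 4172. The median of the members was -0.16 (0.01 over all genes). These 3 comparisons share the Control libraries, so a member that was high or low there moves in all of them.

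SSDS-shACOT12 against SSDS-GFP is the comparison closest to the hepatic knockdown, since both groups had SSDS. The labels do not describe the vector of the knockdown further, so a difference in vector cannot be told apart from it. By edgeR 0 of 7 members and 0 of all genes passed (0%), with 1 member, Lgi4, and 766 genes (4.53%) at an unadjusted p under 0.05. The Wald test of DESeq2 and weighted limma-voom gave 0 genes too. Lgi4 was higher and Lgi1 lower without overlap, 2 of 7 members. Of all genes 2.23% were higher and 2.58% lower without overlap, 4.81% in all. Without SSDS-shACOT12 2 the count was 5 members against 36.9% of all genes, and without SSDS-GFP 3 it was 4 against 19.6%. Without the 3 libraries that stand apart, 1 library against 2, it was 5 members against 62.7% of all genes. The median of the members was 0.18 (0.01 over all genes).

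**Figure D3:**
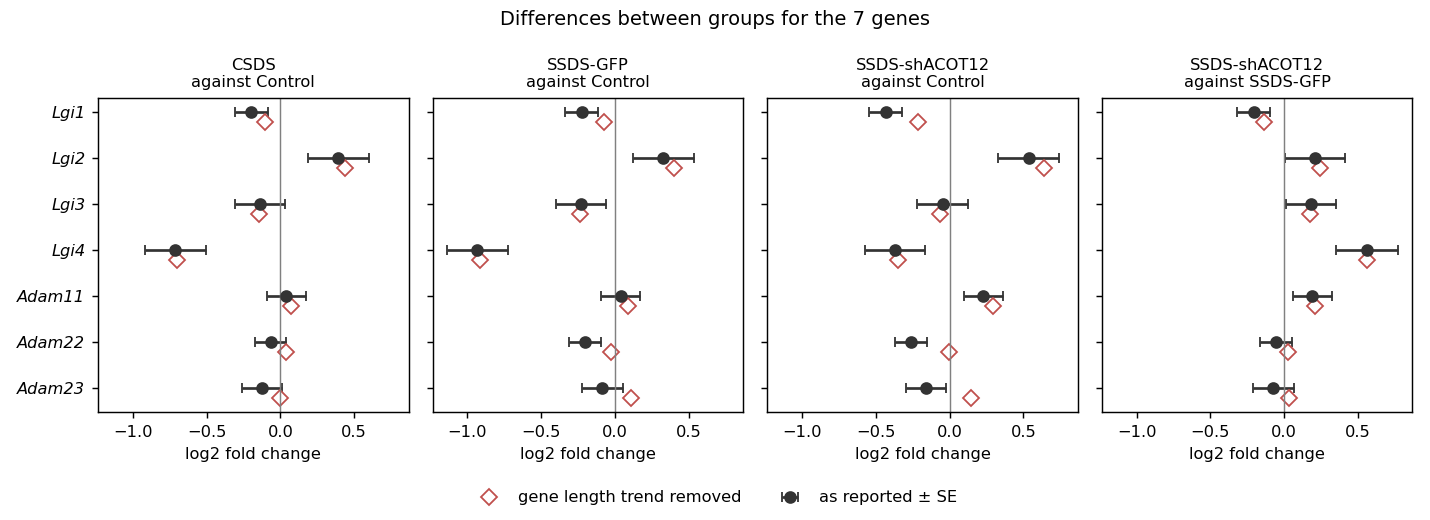
Log2 fold change of the 7 genes in the 4 comparisons, with black points for the fitted value and its SE and open diamonds for the value after removal of the trend with gene length. The diamonds of Lgi1, Adam22 and Adam23 lie nearer to 0 than their points in SSDS-GFP or SSDS-shACOT12 against Control, or on the other side of it, while Lgi4 stays at -0.93 and -0.92 in SSDS-GFP against Control.

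Lgi1, Adam22 and Adam23, with 11354, 14348 and 17907 exon bases, belong to the longest eighth of the tested genes, and fold changes followed gene length in these libraries. In SSDS-shACOT12 against Control, the 2115 genes of 8684 to 123179 bases had a median log2 fold change of -0.19, and the 2115 shortest 0.24. In SSDS-GFP against Control these medians were -0.14 and 0.20, in CSDS -0.09 and 0.14, and between the SSDS groups -0.04 and 0.03. With the trend removed, Lgi1 in SSDS-shACOT12 against Control went from -0.43 to -0.21 (adjusted p = 0.29), and against the same controls SSDS-GFP went from -0.23 to -0.08 and CSDS from -0.20 to -0.10. Adam22 went from -0.26 to -0.004 in SSDS-shACOT12 and from -0.20 to -0.03 in SSDS-GFP. Adam23 turned to 0.14 and 0.11 in those comparisons. Apart from Lgi1 in SSDS-shACOT12, these 3 long genes then lay between -0.08 and 0.14 in the SSDS groups, on a scale where 0 is the level of genes of their length. Lgi2, with 6528 bases, went from 0.54 to 0.64 in SSDS-shACOT12 and from 0.33 to 0.40 in SSDS-GFP. Lgi4, with 4584 bases, changed little, from -0.37 to -0.35 and from -0.93 to -0.92.

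**Figure D4:**
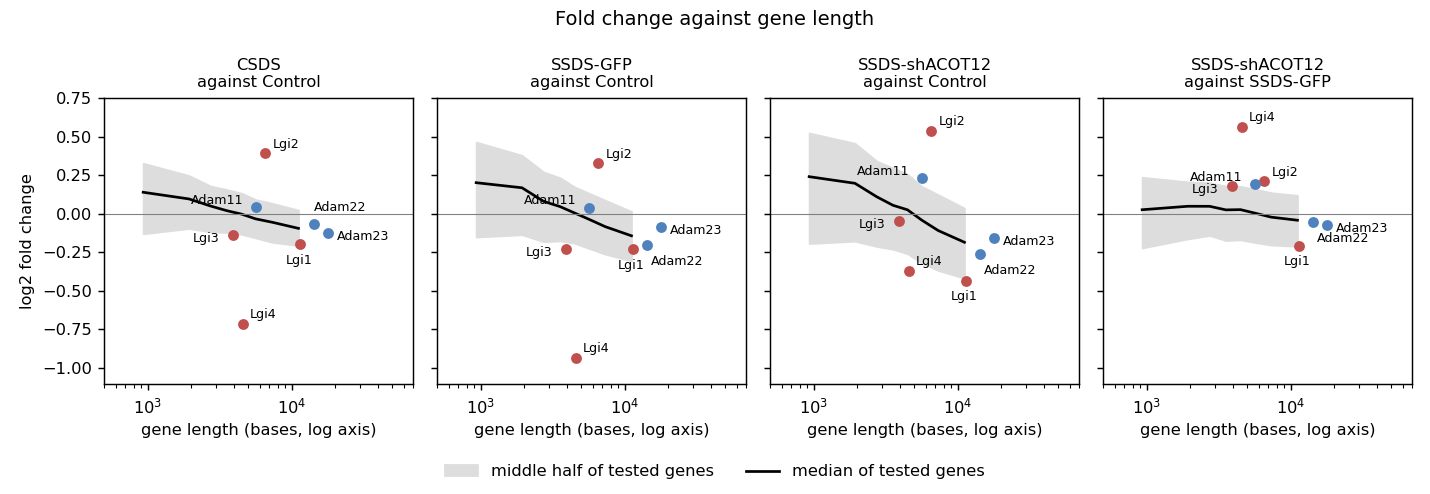
Log2 fold change against gene length in bases (log axis) in the 4 comparisons, with the median and the middle part (quartile to quartile) of the tested genes in 8 length classes as line and grey band, ligand genes in red and receptor genes in blue. The line descends with length in the 3 comparisons with Control, and Lgi1, Adam22 and Adam23 sit at its long end, while Lgi2 and Lgi4 lie outside the band in all 4 comparisons.

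The partner genes of the complex were described from 5 lists. By edgeR 0 genes of these lists passed in any of the 4 comparisons. The Kv1 channel complex, which LGI proteins help to place on axons, had the lowest median of them against Control. With CSDS all 7 of its genes had a negative log2 fold change, median -0.27. With SSDS-GFP and SSDS-shACOT12 it was 6 of 7, median -0.31 and -0.44. Kcna1, the channel subunit whose loss causes seizures in mice, had a log2 fold change of -1.17 ± 0.24 with CSDS (adjusted p = 0.849), -1.19 ± 0.24 with SSDS-GFP (0.0907) and -1.11 ± 0.24 with SSDS-shACOT12 (0.0531). The beta subunit Kcnab2, the most abundant of the list, was lowest with CSDS, at -0.35 ± 0.22 (adjusted p = 0.896). Its difference from Control was only -0.09 ± 0.22 in the knockdown group SSDS-shACOT12 (adjusted p = 0.817). For SSDS-GFP it was -0.31 ± 0.22 (adjusted p = 0.523). The beta subunit Kcnab1 was lowest in SSDS-shACOT12, at -0.63 ± 0.24 (adjusted p = 0.135). Its values were -0.39 ± 0.23 for SSDS-GFP and -0.42 ± 0.23 for CSDS (adjusted p = 0.45 and 0.874).

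The 8 genes of scaffolds that bind ADAM22 had medians near 0, between -0.08 in SSDS-GFP and -0.009 in CSDS against Control. Dlg4, which encodes PSD-95, averaged 916 ± 245 CPM in SSDS-shACOT12 against 877 ± 72.7 in Control (SD, n = 3), or 0.06 ± 0.18 as log2 fold change. Lin7c, a small adaptor of the scaffold, averaged 156 ± 19.2 and 77.4 ± 43.3 CPM in the same groups, with -1.02 ± 0.36 (edgeR adjusted p = 0.115). Of the 11 genes of AMPA receptors and their auxiliary subunits, Gria1, a core subunit, had -0.35 ± 0.17 with CSDS, -0.43 ± 0.17 with SSDS-GFP and -0.39 ± 0.17 with SSDS-shACOT12 (adjusted p = 0.86, 0.265 and 0.187). The auxiliary subunit Cnih2 had -0.06 ± 0.24 in CSDS and 0.17 ± 0.24 in SSDS-shACOT12. The auxiliary subunit Cacng5 had -1.12 ± 0.25 with CSDS, -1.37 ± 0.26 with SSDS-GFP and -1.19 ± 0.26 with SSDS-shACOT12 (adjusted p = 0.849, 0.0782 and 0.0531).

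Of the 8 tested ADAM genes that encode active proteases, Adam10 was the most abundant with 17.3 FPKM, followed by Adam9 with 13.0. Both lay below Adam11 (43.3 FPKM) and above Adam22 (12.7) and Adam23 (6.27). Adam10, the main sheddase of neurons, had log2 fold changes of 0.02 ± 0.24, 0.18 ± 0.24 and -0.26 ± 0.24 in CSDS, SSDS-GFP and SSDS-shACOT12 against Control. Adam8, an ADAM of immune cells, had 1.37 ± 0.42 in SSDS-GFP (adjusted p = 0.165), and Adam19 0.49 ± 0.16 in SSDS-shACOT12 (0.0993). Of 14 other adhesion genes that span the synapse, Nlgn2, a neuroligin of inhibitory synapses, had 0.25 ± 0.14 and Lrrtm1, a partner of neurexins, 0.47 ± 0.15 in SSDS-shACOT12 against Control (adjusted p = 0.28 and 0.0948). Il1rapl1 had -1.07 ± 0.32 there (adjusted p = 0.0837).

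Markers of cell types moved beside these values. The summed level of 8 dentate granule cell markers, all tested and with none at 0, was 731 to 872 CPM in Control. It was 483 to 627 with CSDS, 556 to 606 with SSDS-GFP and 333 to 621 with SSDS-shACOT12. All libraries of the other groups thus lay below Control. However, its members Stxbp6, Pdzd2 and Tdo2 were taken from earlier results of these data. The 5 other markers summed to 491 to 597 CPM in Control, 317 to 442 with CSDS, 410 to 434 with SSDS-GFP and 229.6 to 482 with SSDS-shACOT12, also below Control. Their median log2 fold change was -0.42 with CSDS, -0.41 with SSDS-GFP and -0.89 with SSDS-shACOT12, and 1 of them, C1ql2, had 0.12 and 0.43 in the SSDS groups. The 7 inhibitory neuron markers, none of them at 0, summed to 565 to 606 CPM in Control. They summed to 654 to 739 with CSDS, 635 to 844 with SSDS-GFP and 705 to 922 with SSDS-shACOT12, above Control throughout. All 7 had a positive log2 fold change in these comparisons, but of unlike size. Sst averaged 139 CPM in Control and 200, 237 and 291 in CSDS, SSDS-GFP and SSDS-shACOT12. Gad1 had log2 fold changes of 0.07, 0.01 and 0.13 in the same order. In bulk tissue, fewer cells of a type and less RNA per cell cannot be told apart. The part of these markers in the values of Lgi1, Lgi2 and Lgi4 was not tested. The 10 oligodendrocyte markers overlapped between groups, at 5615 to 7618 CPM in Control and 5871 to 9653 in SSDS-GFP. The 5 red blood cell markers stood at 332 to 386 CPM in CSDS against 87.8 to 120.1 in Control, and 67.1 to 205 in the SSDS groups. The 5 endothelial markers were at 213 to 239 CPM in SSDS-GFP and 239.8 to 294 in Control, and the 5 ependymal markers at 24.96 to 34.4 CPM in SSDS-shACOT12 and 13.0 to 19.9 in Control. The part of these 3 lists in the members' values was not tested either. The 7 choroid plexus markers reached 40.0 to 555 CPM in Control against 15.7 to 42.3 in the other groups.

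Across the 12 libraries, Lgi1 and Lgi2 varied in opposite directions, with a Pearson correlation of -0.728 of log2 CPM, and of -0.535 after group means were taken out. Lgi2 and Adam23 correlated at -0.767 and -0.722. Lgi1 and its receptor gene Adam22 correlated at 0.712, but at 0.097 within groups. These correlations are a description over libraries that share depth, composition and group, and carry no test.

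The genes most like each member were named by the Pearson correlation of log2 CPM over the 12 libraries, among the 10691 genes compared (10692 for Lgi4), those whose log2 CPM averaged 3 or more. For Lgi1 they were Stxbp6 (0.914), Dtna (0.902) and Rlf (0.888), and within groups Stxbp6 correlated with it at 0.527. Lgi2 was most like Rasgrp2, Garnl3 and Plxna3, each at 0.942. For Lgi3 the closest were Thoc3 (0.903), Fndc10 (0.89) and Epha10 (0.884), and for Lgi4 Syne1 (0.958), Ankrd52 (0.935) and Herc2 (0.931). Adam11 was closest to Plch2 (0.873), Zmynd8 (0.837) and Gpt2 (0.836). Adam22 was closest to Plod2 (0.969), Zfp26 (0.961) and Eml5 (0.956), and Adam23 to Prkca (0.943), Camk1d (0.939) and Shisa6 (0.936). No member was among the 3 genes most like another member. As the highest of so many correlations over 12 libraries, these values are high by selection and carry no test. Without the 2 libraries farthest from a member's median, they ran from 0.694 (Adam11 with Gpt2) to 0.963 (Adam22 with Zfp26).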

How the data were processed

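RNA of 12 samples was made into libraries with a NEBNext Ultra kit and sequenced. Per the submitters' processing notes, the authors used HISAT2 2.0.5, featureCounts 1.5.0-p3, DESeq2 (no version) and mm10; strand setting and annotation release are not given in the sources used here. One deposited table holds raw counts. The FPKM values were also deposited, and the authors divided them by gene length, given in bases per the file headers, and by a scaled library size. Worked back from the counts, that size was 0.958 (SSDS-GFP 1) to 1.061 (SSDS-GFP 3) times the total count of the library.

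Genes were kept by filterByExpr (minimum count 10, minimum total 15) and scaled by TMM in edgeR 4.0.16 (R 4.3.3). A group-only quasi-likelihood model took in all 12 libraries, and 4 contrasts were tested, 2-sided, with Benjamini-Hochberg adjusted p under 0.05 over all tested genes. Errors are SD over libraries or SE of the fit. Levels are CPM. The tests were tried on simulated counts first. The 7 members, all lists and the alternatives were chosen with earlier results of these data known. All members were named in every contrast. Of each partner list the rule named the 2 genes with the highest mean FPKM and those with the smallest p per contrast, and of these the text gives examples. For each member it named the 3 most correlated genes.

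What replicate numbers share is not stated. For numbers 1 to 3, SSDS-GFP and SSDS-shACOT12 deviations from their own mean correlated at 0.196, 0.419 and 0.353, above the bound of 0.1 set for pairing. The replicate block was therefore tried. It gave each number an effect shared by all groups, Control and CSDS included, so it is not a paired test of the SSDS groups alone. Pairs with Control stayed below it. Alternatives were DESeq2 1.42.0 size factors and Wald test, no filter, 50 counts in 3 libraries, the 6 libraries compared, a replicate block, limma-trend (limma 3.58.1) on log2 FPKM with 0.1 or 1 added, limma-voom with library quality weights, removal of each library's gene length trend (lowess, span 0.3), the 3 libraries that stand apart left out, and each library left out. Counts of members without overlap under left-out libraries were chosen after seeing the data.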

Additional observations from a re-analysis of the deposited data

How the results depend on the processing

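Members called stayed at 0 except for 1 in SSDS-GFP against Control with the DESeq2 Wald test, without a filter and with quality weights (Lgi4), and 1 in SSDS-shACOT12 against Control with the Wald test, with 50 counts in 3 libraries, with quality weights and in 1 of the fits that left out a library (0 to 1; Lgi1). Genes called in CSDS against Control (0) were 6 with the Wald test, 132 without a filter, 84 with the 6 libraries compared, 34 with quality weights, 30 without the 3 libraries that stand apart, and 0 to 1 with a library left out. In SSDS-GFP against Control (16) they were 531, 608, 34, 2239 and 216 under these settings, and 4 to 15 with a library left out. In SSDS-shACOT12 against Control (14) they were 1493, 1741, 0, 4172 and 735, besides 350 with 50 counts in 3 libraries, 24 with limma-trend on FPKM and 1 added, 7 with the length trend removed, and 1 to 4232 with a library left out, the highest without SSDS-shACOT12 2. Between the SSDS groups (0) they were 108 without a filter, 20 without the 3 libraries and 0 to 985 with a library left out, again highest without SSDS-shACOT12 2. The cause was not tested.

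With the replicate block, 9 genes were called in SSDS-GFP and 3 in SSDS-shACOT12 against Control; members called stayed at 0 in all 4 comparisons, and no other call changed.

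Members without overlap numbered 2 to 5 in CSDS, 3 to 4 in SSDS-GFP and 3 to 6 in SSDS-shACOT12 against Control, and 2 to 5 between the SSDS groups, with a library left out. Over the same fits, 28.3% to 34.8%, 29.4% to 44.6%, 29.7% to 56.2% and 8.68% to 36.9% of all genes did not overlap. Without the 3 libraries that stand apart the last 2 counts were 6 and 5, against 68.1% and 62.7% of all genes.

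Directions turned for differences of at most 0.19. With a library left out, Adam11 ranged from -0.0496 to 0.154 in CSDS and from -0.0522 to 0.147 in SSDS-GFP against Control (-0.00676 and -0.0259 without SSDS-GFP 1 or 2), and went to -0.00425 between the SSDS groups without the 3 libraries. Lgi3 in SSDS-shACOT12 against Control ranged from -0.204 to 0.12 with a library left out, and went to 0.0682 with quality weights, and to -0.314 between the SSDS groups without the 3 libraries. Adam23 ranged from -0.19 to 0.0712 in SSDS-GFP against Control and from -0.228 to 0.0311 between the SSDS groups with a library left out. It went to 0.0735 in the former without the 3 libraries, and with the length trend removed to 0.108, 0.142 and 0.0346. Adam22 went to 0.0386 in CSDS and 0.0257 between the SSDS groups with that trend removed. Of 476 values of members under alternatives, 452 kept direction and side of the threshold. Depth limits Lgi4 most, at 64 to 199 counts per library.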
